A study of Canis lupus familiaris with 15 samples.

Results

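Levels of 7 antioxidant enzyme genes were followed across 3 canine mammary tumour cell lines: MGST1, GSTA4, CAT, SOD1, SOD2, NQO1 and GSR. They were taken by symbol, and all 7 were measured, with 10 of the 7694 array probes that carry a symbol and as 7 of 5246 genes. CAT, SOD1 and SOD2 had 2 probes each and the other genes 1. P114 was derived from a primary anaplastic carcinoma of the mammary gland, CMT-U335 from a primary osteosarcoma of the same organ, and the source of CMT-U229 was a benign mixed tumour. The labels give no treatment for any of them, and RNA was taken as cultures neared confluence. Each tumour type is represented by 1 line, so line and tumour type cannot be told apart. Every array was a direct competition between 2 lines, with 5 arrays for each of the 3 pairs and the dyes exchanged on 2 or 3 of them.

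These enzymes act at different points against reactive oxygen and reactive compounds. Superoxide dismutases turn superoxide into hydrogen peroxide, which catalase and the peroxidases then break down. Glutathione is the main small thiol of the cell, glutathione transferases attach it to reactive compounds, and glutathione reductase returns its oxidised form to use. NQO1 reduces quinones directly and is a classical target of the transcription factor NRF2. Tumour cells are known to differ widely in these systems, which also act on many drugs. The platform's sequences were not used here, so no probe or gene sequence is shown.

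Values are log2 ratios of the first-named line over the second, so 1 is a doubling and -1 a halving, and errors are standard errors (SE) from limma over 5 arrays unless stated. The word called marks genes with an adjusted p (Benjamini-Hochberg, over all 5246 genes) under 0.05. The direction is likely rather than settled, because the deposited ratios were read as Cy5 over Cy3 from the order of channels in the labels; read the other way, every direction below would turn. With this reading, the epithelial keratin gene KRT8 was higher in P114 than in CMT-U335 (2.46 ± 0.201) and the bone collagen gene COL1A2 lower (-1.39 ± 0.142). Of 7 measured epithelial markers, 5 were called higher in P114 than in CMT-U335 and 1 lower, where 7.89% and 14.4% of all genes were. Of 5 mesenchymal markers 2 were lower there, and of 7 myoepithelial markers 2 were higher and 1 lower. The markers followed the line names less well in P114 against CMT-U229. There 2 of 7 epithelial markers were higher and KRT8 was not called (-0.31). In the same pair 2 of 5 mesenchymal and 2 of 5 bone markers were higher in P114, and none was lower. Of 7 myoepithelial markers 2 were higher and 2 lower there, where 3.32% and 3.98% of all genes were. In CMT-U229 against CMT-U335, 3 of 7 epithelial markers were higher, and 4 of 5 mesenchymal markers were lower. Of 5 bone markers in that pair 1 was higher and 1 lower. Of 7 myoepithelial markers 1 was higher and 2 lower, where 8.77% and 8.58% of all genes were. Of 5 bone markers, COL1A2 was the single one called lower in P114 than in CMT-U335, while SPP1 (4.12 ± 0.179) and SPARC (0.56 ± 0.166) were higher. Of 7 leukocyte markers 1 was called in each pair, and of 4 endothelial markers none was, with mean ratios between -0.18 and 0.16. The shares called over all genes were 22.3% in P114 against CMT-U335, 7.3% in P114 against CMT-U229 and 17.3% in CMT-U229 against CMT-U335. All 5 arrays on a pair are labelled as biological replicates, but dye swaps are counted among them in the series design. The p-values thus measure the spread between arrays, which may in part be technical. Some arrays of opposite dye lay so close together that they may hold the same RNA. Counts of calls with such arrays averaged, which leaves 3 values a pair, are given beside the main counts for the enzymes and for the lists as a whole.

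The lines differed in most of these genes, and no line was high or low in all of them. P114 was lower than CMT-U335 in GSTA4, CAT and SOD1 and higher in NQO1, so 4 of 7 were called, where 22.3% of all genes were (7.89% higher and 14.4% lower in P114). Against CMT-U229, P114 was called lower in MGST1, GSTA4, CAT and SOD1 and higher in none, again 4 of 7. There 7.3% of all genes were called (3.32% higher and 3.98% lower). CMT-U229 was called higher than CMT-U335 in MGST1, SOD2, NQO1 and GSR and lower in none. In that pair 17.3% of all genes were called (8.77% higher and 8.58% lower). The median size of a ratio over the 7 genes was 0.81, 0.65 and 0.53 in these pairs in turn, and over all genes 0.152, 0.1 and 0.125. The 7 genes were chosen with earlier results of these data known. Shares and sizes above those of all genes are therefore no test of the group. With apparent dye swaps averaged, 3, 2 and 3 of the 7 were called, where 16%, 1.51% and 7.82% of all genes were (839, 79 and 410). The genes that lost their call were SOD1 between P114 and CMT-U335, CAT and SOD1 between P114 and CMT-U229, and GSR between CMT-U229 and CMT-U335. Because the ratios come from whole cultures, fewer cells with a transcript and less of it per cell cannot be told apart.

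**Figure D1:**
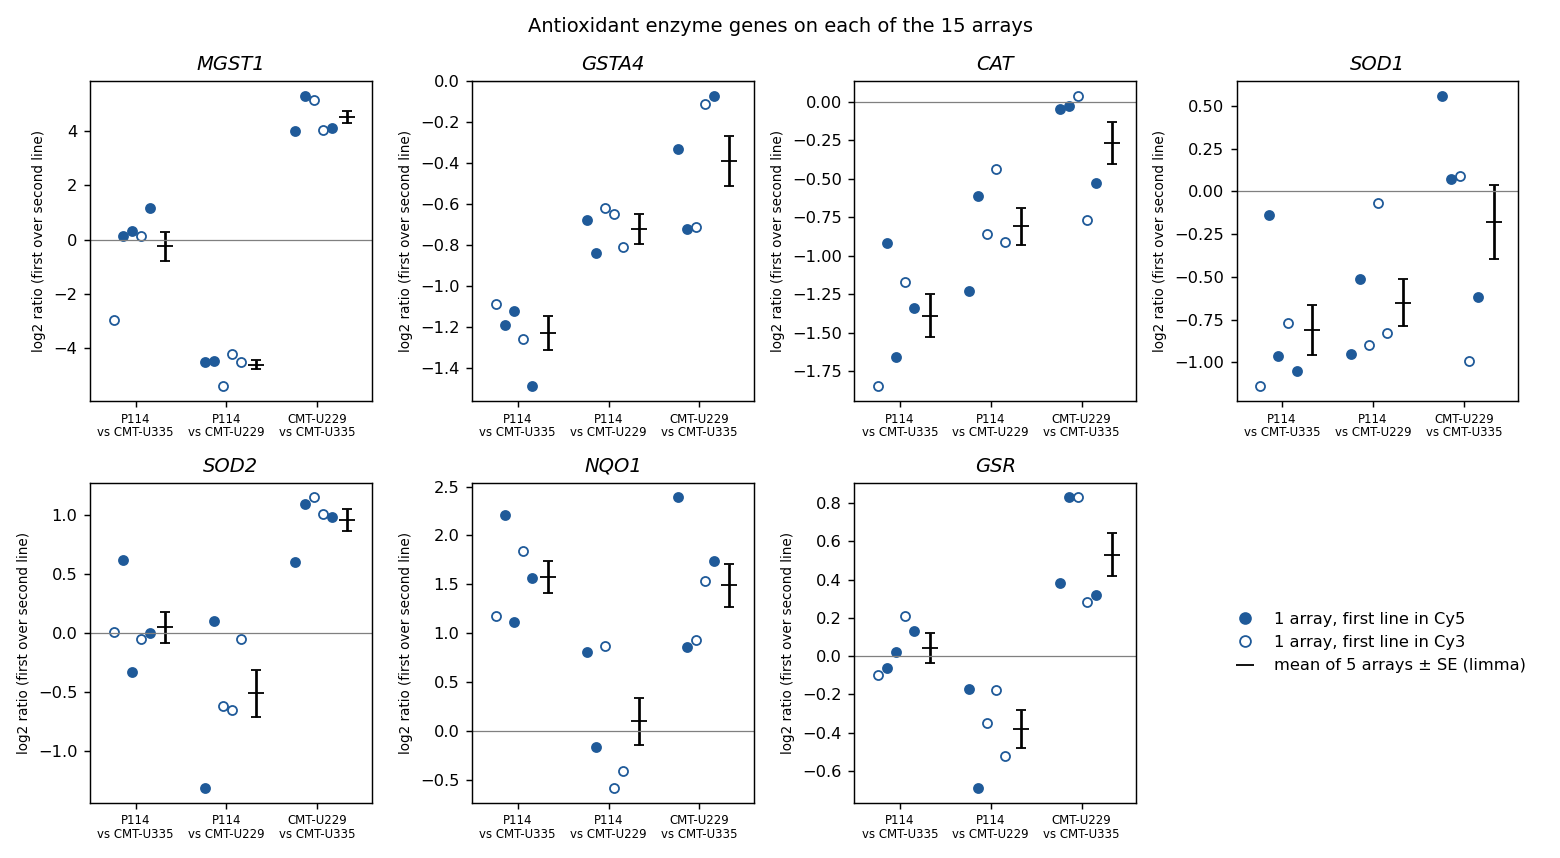
Log2 ratio of the first over the second line on each of 15 arrays (vertical axis, a separate scale per gene) for the 7 genes in the 3 pairs of lines. Filled points are arrays with the first line in Cy5 and open points arrays with it in Cy3; bars are the mean of 5 arrays with its SE. MGST1 lies between -5.4 and -4.21 in P114 against CMT-U229 and between 4.01 and 5.3 in CMT-U229 against CMT-U335.

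MGST1 is a glutathione transferase anchored in the membranes of the endoplasmic reticulum and mitochondria, which also reduces lipid peroxides. It set CMT-U229 apart from both other lines. On the 5 arrays of P114 against CMT-U229 its log2 ratios were -4.5, -4.46, -5.4, -4.21 and -4.49 for replicates 1 to 5. The mean was -4.61 ± 0.166, a 24.4-fold lower signal in P114 (adjusted p = 4.03e-05). Every array lay far below 0, with replicate 3 the lowest. For CMT-U229 against CMT-U335 the arrays read 4.01, 5.3, 5.12, 4.05 and 4.12, a mean of 4.52 ± 0.222 or 22.9-fold (adjusted p = 7.81e-05). By absolute ratio MGST1 ranked 1 of 5246 genes in each of these pairs. Between P114 and CMT-U335 the arrays did not line up: they read -2.96, 0.13, 0.3, 0.12 and 1.16. That mean of -0.25 ± 0.522 was not called (adjusted p = 0.792). Replicate 1 alone lay below 0, and without it the mean was 0.43 ± 0.184, also not called (adjusted p = 0.178, and 0.178 to 0.858 over 17 alternatives). How far the signals of P114 and CMT-U335 stood from background is unknown, since no intensities were used here, so the size of these ratios may be limited by the background on the lower side.

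GSTA4 encodes the alpha class transferase that conjugates glutathione to hydroxynonenal, an aldehyde from oxidised lipids. It was lowest in P114. Against CMT-U335 the arrays read -1.09, -1.19, -1.12, -1.26 and -1.49, a mean of -1.23 ± 0.0837, or 2.35-fold lower in P114 (adjusted p = 0.000125). Against CMT-U229 they read -0.68, -0.84, -0.62, -0.65 and -0.81, a mean of -0.72 ± 0.0739, or 1.65-fold lower (adjusted p = 0.00183). All 10 of these arrays lay below 0, and the ranges of the pairs did not meet. CMT-U229 against CMT-U335 gave -0.33, -0.72, -0.71, -0.11 and -0.07. All of these were below 0 too, but the mean of -0.39 ± 0.122 was not called (adjusted p = 0.0735). GSTA4 has close relatives in its gene family and 1 probe here, so binding of their transcripts to it cannot be told apart.

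Catalase, CAT, the peroxisomal enzyme that splits hydrogen peroxide into water and oxygen, was also lowest in P114. Its arrays in P114 against CMT-U335 read -1.85, -0.92, -1.66, -1.17 and -1.34. The mean of -1.39 ± 0.139 is 2.62-fold lower in P114 (adjusted p = 0.000588), and replicate 2 was the nearest to 0. P114 against CMT-U229 gave -1.23, -0.61, -0.86, -0.44 and -0.91, a mean of -0.81 ± 0.121 or 1.76-fold lower (adjusted p = 0.00875). All 5 arrays were below 0, but with the apparent swaps averaged the adjusted p was 0.106 (3.17e-05 to 0.106 over 18 alternatives). CMT-U229 against CMT-U335 gave -0.05, -0.03, 0.04, -0.77 and -0.53, with a mean of -0.27 ± 0.136 that was not called (adjusted p = 0.263). In that pair 3 arrays sat within 0.05 of 0 and only replicates 4 and 5 were clearly lower. The probes of CAT gave -1.17 ± 0.182 and -1.61 ± 0.126 for P114 against CMT-U335, -0.71 ± 0.104 and -0.91 ± 0.172 for P114 against CMT-U229, and -0.22 ± 0.162 and -0.31 ± 0.144 for CMT-U229 against CMT-U335. Probes were tested over all 22176 probes, and both CAT probes were called in the pairs in which the gene was.

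SOD1, the copper and zinc superoxide dismutase of the cytosol, was lowest in P114, as CAT was, with smaller ratios. In P114 against CMT-U335 its arrays read -1.14, -0.14, -0.96, -0.77 and -1.05, a mean of -0.81 ± 0.147, 1.75-fold lower in P114 (adjusted p = 0.00705). Replicate 2 was close to 0 and the other arrays were well below it. With apparent swaps averaged the adjusted p became 0.0697 (0.000504 to 0.0697 over 18 alternatives). In P114 against CMT-U229 the arrays read -0.95, -0.51, -0.9, -0.07 and -0.83, a mean of -0.65 ± 0.14, 1.57-fold lower (adjusted p = 0.0361). This call was the weakest of the 7 genes. It was lost without replicate 1, 2, 3 or 5 (adjusted p = 0.13, 0.0861, 0.118 and 0.123 in turn) and under 11 of 18 alternatives in all, whose adjusted p ran from 0.00572 to 0.281. CMT-U229 against CMT-U335 gave 0.56, 0.07, 0.09, -0.99 and -0.62. These arrays fell on both sides of 0, and the mean of -0.18 ± 0.218 was not called (adjusted p = 0.68).

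SOD2, the manganese superoxide dismutase of mitochondria, did not follow SOD1. It was higher in CMT-U229 than in CMT-U335, with arrays at 0.6, 1.09, 1.15, 1.01 and 0.98 and a mean of 0.96 ± 0.0941, or 1.95-fold (adjusted p = 0.000907). All 5 arrays were above 0, with replicate 1 the lowest. P114 against CMT-U229 gave -1.31, 0.1, -0.62, -0.65 and -0.05, a mean of -0.51 ± 0.2 that was not called (adjusted p = 0.222). Replicate 1 was the lowest, and without it the mean was -0.3 (adjusted p = 0.466). The loop fit over all 15 arrays, described after the single genes, called this difference at -0.64 (adjusted p = 0.00302, from a range of 0.00302 to 0.702 over 18 alternatives). P114 against CMT-U335 gave 0.01, 0.62, -0.33, -0.05 and 0, centred on 0 with a mean of 0.05 ± 0.132 (adjusted p = 0.847).

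Probes of one gene agreed to different degrees. Over the 15 arrays the probes of SOD1 differed by a median of 0.03 and at most 0.21, and had the same sign on 14 arrays. Those of CAT differed by a median of 0.31 and at most 0.8, with the same sign on 12. Those of SOD2 differed by a median of 0.27 and at most 0.94, with the same sign on 10. Within each pair both probes of a gene had means of the same sign. Both SOD1 probes were called in P114 against CMT-U335 (-0.86 ± 0.164 and -0.76 ± 0.14). Neither was in P114 against CMT-U229, where they gave -0.66 ± 0.147 and -0.64 ± 0.139 (adjusted p over all probes = 0.0736 and 0.0669). Both SOD2 probes were called in CMT-U229 against CMT-U335, at 0.86 ± 0.0747 and 1.07 ± 0.129.

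**Figure D2:**
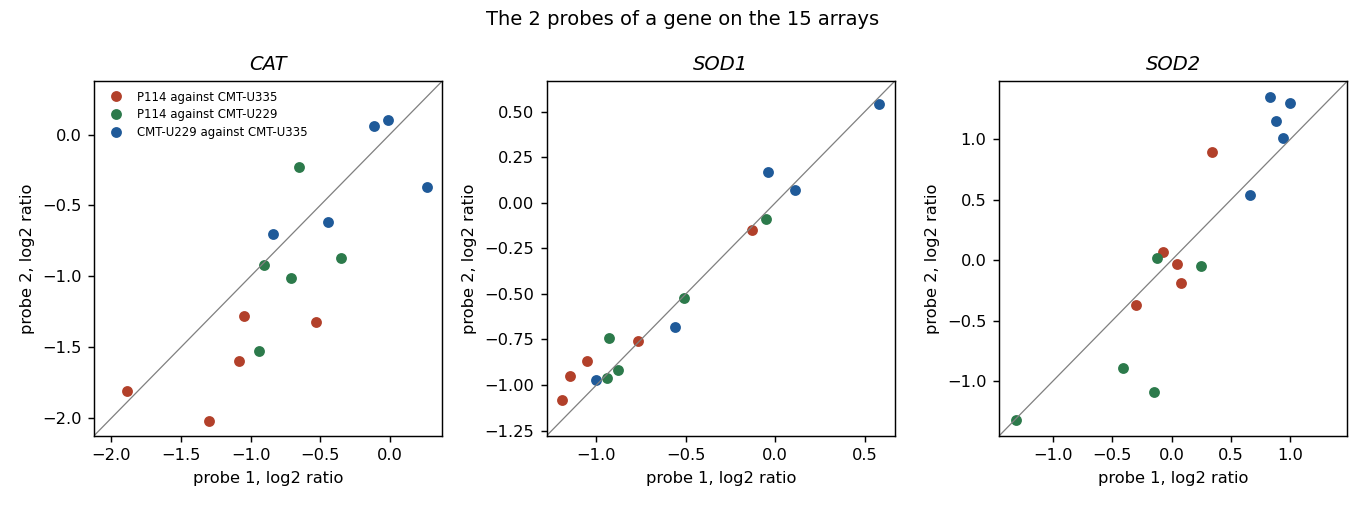
Log2 ratio of probe 1 (horizontal) and probe 2 (vertical) on each of the 15 arrays for CAT, SOD1 and SOD2, coloured by pair of lines, with the line of equality. SOD1 lies within 0.21 of that line, CAT within 0.8 and SOD2 within 0.94 of it in vertical distance.

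NQO1, the quinone reductase, was the single gene of the 7 that was called higher in P114 than in CMT-U335. Its arrays in that pair read 1.18, 2.21, 1.12, 1.84 and 1.57, a mean of 1.58 ± 0.164, or 3-fold (adjusted p = 0.000649). CMT-U229 against CMT-U335 gave 2.39, 0.86, 0.93, 1.53 and 1.74, a mean of 1.49 ± 0.221, or 2.81-fold (adjusted p = 0.00441). All 10 arrays were above 0, with a spread of 1.09 in the first pair and 1.53 in the second. Between P114 and CMT-U229 it gave 0.81, -0.16, 0.87, -0.58 and -0.41. These lay on both sides of 0, with a mean of 0.1 ± 0.239 (adjusted p = 0.909), so the lower line was CMT-U335 and the others could not be ordered.

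GSR, glutathione reductase, had the narrowest span of levels. It was 1.44-fold higher in CMT-U229 than in CMT-U335, with arrays at 0.38, 0.83, 0.83, 0.28 and 0.32 and a mean of 0.53 ± 0.111 (adjusted p = 0.0188). Replicates 2 and 3 carried the highest values, and the call was lost without replicate 2 (adjusted p = 0.0687), without replicate 3 (0.0609) and with the apparent swaps averaged (0.099), from a range of 0.000127 to 0.099 over 17 alternatives. P114 against CMT-U229 gave -0.17, -0.69, -0.35, -0.18 and -0.52. All were below 0, but the mean of -0.38 ± 0.1 was not called (adjusted p = 0.0711). It was called by the loop fit (-0.42, adjusted p = 0.000914) and by pair means fitted over all 15 arrays (0.017), from a range of 0.000914 to 0.267 over 17 alternatives. P114 against CMT-U335 gave -0.1, -0.06, 0.02, 0.21 and 0.13, a mean of 0.04 ± 0.0784 (adjusted p = 0.782).

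A loop fit over all 15 arrays placed the lines in order for each gene, as log2 deviations from the mean of the 3 lines. All 7 genes differed among the lines by its F test, where 40.7% of all genes did. That count, too, is no test of a group chosen with earlier results known. The fit treats the 15 arrays as independent, which may not hold. With apparent swaps averaged, SOD1 missed the threshold (adjusted p = 0.0591, against 0.00085 over 15 arrays) and 6 of 7 were called, where 31.3% of genes were. Pairs of lines in this fit were called for 33.5% of genes between P114 and CMT-U335, 20.1% between P114 and CMT-U229 and 27.5% between CMT-U229 and CMT-U335. MGST1 stood at 3.04 in CMT-U229, -1.42 in CMT-U335 and -1.62 in P114 (± 0.186 each), and the lower lines did not differ beyond their error (adjusted p = 0.705). SOD2 stood at 0.49, -0.34 and -0.15 (± 0.0808) in CMT-U229, CMT-U335 and P114, and GSR at 0.3, -0.19 and -0.11 (± 0.0451). In both of these, too, CMT-U229 was highest and the difference between P114 and CMT-U335 was not called (adjusted p = 0.362 for SOD2 and 0.527 for GSR).

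GSTA4, CAT and SOD1 had the other order, with CMT-U335 highest, CMT-U229 between and P114 lowest. GSTA4 stood at 0.54, 0.11 and -0.65 (± 0.0438), and each neighbour differed from the next in this fit (adjusted p = 0.00034 for CMT-U229 against CMT-U335). That last difference was called under 3 of 17 alternatives (adjusted p from 0.00034 to 0.221). CAT stood at 0.55, 0.18 and -0.73 (± 0.0694), with CMT-U229 below CMT-U335 at adjusted p = 0.0297. For CAT this fit was the single one of 18 alternatives to call that difference (adjusted p from 0.0297 to 0.591). SOD1 stood at 0.33, 0.16 and -0.49 (± 0.0887), and its upper lines did not differ beyond their error (adjusted p = 0.481). NQO1 had CMT-U335 lowest, at -1.02, with CMT-U229 at 0.46 and P114 at 0.56 (± 0.111), and these last lines did not differ beyond their error (adjusted p = 0.812). From highest to lowest line the span was 4.66 for MGST1, 1.59 for NQO1, 1.28 for CAT, 1.19 for GSTA4, 0.83 for SOD2, 0.82 for SOD1 and 0.49 for GSR.

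**Figure D3:**
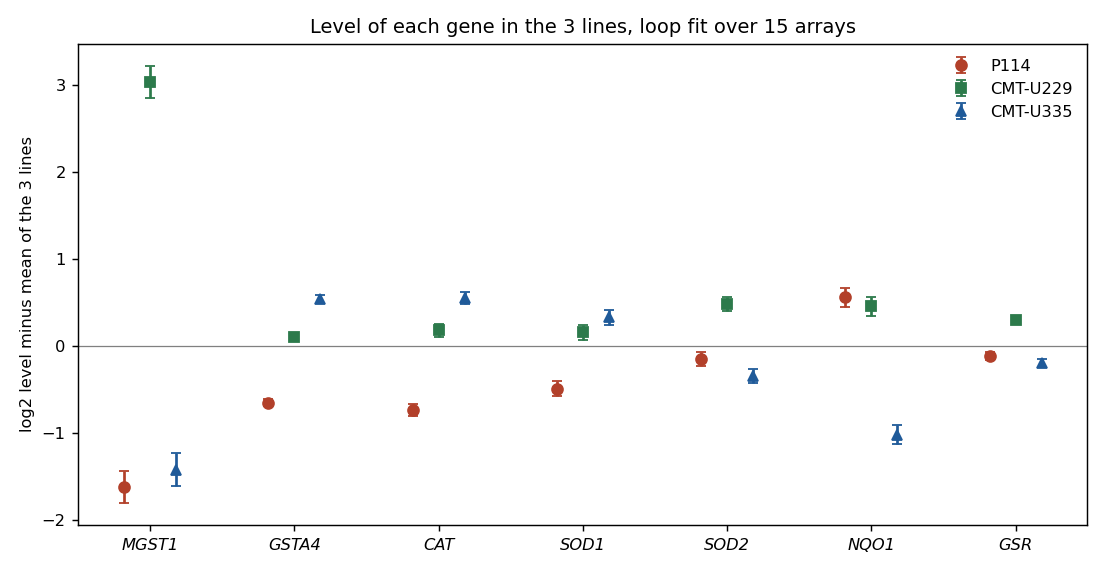
Level of each gene in P114, CMT-U229 and CMT-U335 as log2 deviation from the mean of the 3 lines (vertical axis), from the loop fit over 15 arrays, with SE as bars. CMT-U229 is highest for MGST1, SOD2 and GSR, CMT-U335 for GSTA4, CAT and SOD1, and CMT-U335 is lowest for NQO1.

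The direct ratio of P114 to CMT-U335 can be set against the sum of the other pairs. This closure difference ran from -0.41 ± 0.288 (SOD2) to 0.02 ± 0.337 (SOD1) among the 7 genes, with MGST1 at -0.16 ± 0.706. None of the 7 was called by limma and none had an unadjusted p under 0.05 (lowest 0.175). Over all genes 0% were called, and 17 of 5246 (0.324%) had an unadjusted p under 0.05. Independent arrays that close would give about 1 in 20, so the SE of this difference was probably too wide. The lack of calls is therefore not a check that the ratios passed. A dye term fitted over all arrays was called for 11.7% of genes and for 0 of the 7, none of which had an unadjusted p under 0.05. It was largest for MGST1, at 0.34 ± 0.232 (adjusted p = 0.393).

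The 5 arrays of a pair were not spread evenly for these genes. Replicates 2 and 3 of CMT-U229 against CMT-U335, which carry opposite dyes, differed by at most 0.17 in any of the 7 genes (MGST1). Replicates 4 and 5, also of opposite dyes, differed by at most 0.36 (SOD1), while the spread over all 5 arrays ran from 0.55 to 1.55. In NQO1 these couples averaged 0.89 and 1.63 and replicate 1 stood at 2.39. In SOD1 they averaged 0.08 and -0.8 and replicate 1 stood at 0.56, and in MGST1 they averaged 5.21 and 4.09 beside 4.01.

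In P114 against CMT-U229 the close arrays were replicates 1 and 3 and replicates 2 and 5, again of opposite dyes. NQO1 averaged 0.84 in the first couple and -0.29 in the second, with replicate 4 at -0.58, and the arrays within a couple were 0.06 and 0.25 apart. GSTA4 arrays within a couple were 0.06 and 0.03 apart. MGST1 was an exception, with 0.9 between replicates 1 and 3, as was SOD2 with 0.69. In P114 against CMT-U335 replicates 1 and 3 were within 0.34 of each other in 6 of the genes, and 3.26 apart in MGST1. The couples were chosen over a wider set of genes, kept for a high spread over the arrays of that pair and little dye effect in the other pairs. The choice went by how little of the variation between arrays, gene by gene, fell inside a couple. The share inside couples was 0.0598 for P114 against CMT-U229 (78 genes), 0.177 for CMT-U229 against CMT-U335 (52 genes) and 0.426 for P114 against CMT-U335 (52 genes). These were the lowest shares of all splits into couples of opposite dye, and such a choice favours low values. The next lowest were 0.373, 0.397 and 0.504 in turn. In P114 against CMT-U335 the chosen split thus stood out little, and its counts with swaps averaged rest on an uncertain choice. Whether couples hold the same RNA was not tested.

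**Figure D4:**
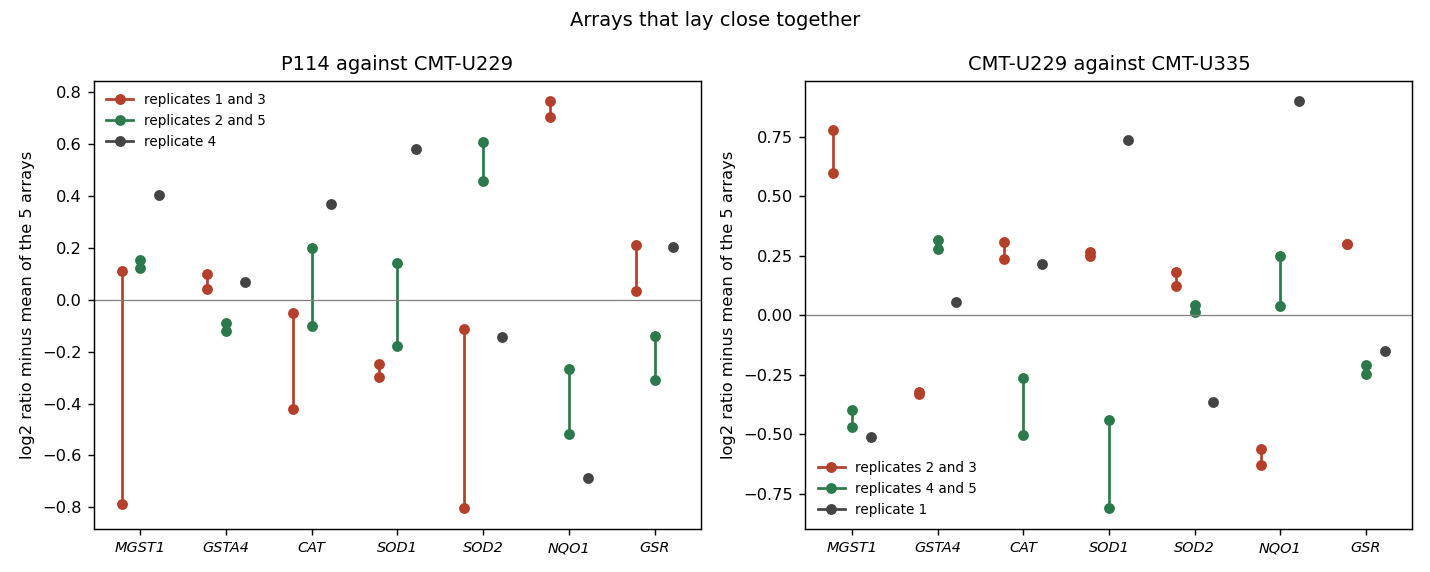
Log2 ratio minus the mean of the 5 arrays (vertical axis) for the 7 genes in P114 against CMT-U229 and CMT-U229 against CMT-U335; each point is an array, and lines join the arrays that lay closest together. In CMT-U229 against CMT-U335 the joined arrays are at most 0.36 apart for every gene shown.

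Other genes of these systems were read from lists by role, 73 measured of 159 listed. The lists were also chosen with earlier results of these data known. Of the 66 that are not among the 7 enzymes, 20 (30.3%) were called for P114 against CMT-U335, with 2 ratios above 0 and 18 below, where 22.3% of all genes were called. Between P114 and CMT-U229, 9 (13.6%) were called, 1 higher and 8 lower, where 7.3% of all genes were. Between CMT-U229 and CMT-U335, 14 (21.2%) were called, 4 higher and 10 lower in CMT-U229, where 17.3% of all genes were. With apparent swaps averaged, 14 (21.2%), 1 (1.52%) and 8 (12.1%) of the 66 were called, where 16%, 1.51% and 7.82% of all genes were. In P114 against CMT-U229 the single call then left was that of ALDH1L2, and the other 8 were lost. The 6 calls lost in P114 against CMT-U335 were those of PRDX4, TXN, GLRX5, BLVRB, IDH1 and HSD17B4. In CMT-U229 against CMT-U335 the 6 lost were those of CCS, PRDX6, MSRB2, IDH1, IDH2 and ABCD3. Their median ratios were -0.12, -0.07 and -0.02, beside -0.0228, -0.0113 and -0.00504 over all genes.

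Among 7 measured glutathione transferases, MGST1 and GSTA4 included, 2, 3 and 1 were called in the pairs in the order just given. Over all genes the shares called were 22.3%, 7.3% and 17.3%. Besides MGST1 and GSTA4, the single transferase called was GSTK1. GSTK1, the transferase of mitochondria and peroxisomes, was lower in P114 than in CMT-U335 (-0.68 ± 0.106) and than in CMT-U229 (-0.77 ± 0.0961). Between the latter lines it stood at 0.01 and was not called (adjusted p = 0.976). MGST2, of the same family of membrane proteins as MGST1, was not called in any pair and stood at 0.02, 0.18 and -0.11. GSTO1, GSTO2 and PTGES were not called either, with mean ratios from -0.21 to 0.16.

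Among 5 genes for glutathione synthesis, reduction and turnover, ESD, which hydrolyses formylglutathione, was 1.12 ± 0.144 higher in CMT-U229 than in CMT-U335 and at -0.82 ± 0.123 in P114 against CMT-U229. Besides it, GSR was called once. Glutathione synthetase, GSS, stood at -0.09, -0.21 and 0.22 and was not called. Of 8 superoxide dismutases, catalase and glutathione peroxidases, GPX8 of the endoplasmic reticulum was lower in P114 than in CMT-U335 (-0.77 ± 0.118). CCS, the copper chaperone of SOD1, was lower in CMT-U229 than in CMT-U335 (-0.54 ± 0.146, adjusted p = 0.0444). GPX1, GPX2 and GPX3 were not called in any pair.

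The thioredoxin, peroxiredoxin and glutaredoxin list had 17 measured genes. Between P114 and CMT-U335, 1 was higher and 6 were lower in P114, where 7.89% and 14.4% of all genes were. Of 6 measured peroxiredoxins, which reduce peroxides, 3 were lower: PRDX1 of the cytosol (-0.64 ± 0.138), PRDX3 of mitochondria (-0.76 ± 0.0779) and PRDX4 of the endoplasmic reticulum (-0.4 ± 0.0921). PRDX2 (-0.29), PRDX5 (0.28) and PRDX6 (0.29) were not called in that pair. Thioredoxin itself, TXN, was the higher one (0.6 ± 0.151). Glutaredoxin, GLRX, was called in all 3 pairs, at -0.69 ± 0.0874, 0.98 ± 0.121 and -1.63 ± 0.109, and so was lowest in CMT-U229. The related GLRX3 and GLRX5, which act with iron and sulphur clusters, were below CMT-U335 in P114 (-0.83 ± 0.112 and -0.42 ± 0.115) and in CMT-U229 (-0.9 ± 0.0821 and -0.68 ± 0.11). Lower in P114 than in CMT-U229 were TXNRD1, which reduces thioredoxin (-0.54 ± 0.0902), and the methionine sulphoxide reductase MSRB2 (-0.57 ± 0.0901). MSRB2 (0.39 ± 0.0883) and PRDX6 (0.31 ± 0.0854) were higher in CMT-U229 than in CMT-U335.

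Of 8 genes for quinone and haem detoxification and iron storage, BLVRB, a biliverdin reductase, was lower in P114 than in CMT-U335 (-0.52 ± 0.129) and than in CMT-U229 (-0.51 ± 0.118). NQO2, the close relative of NQO1, was not called and stood at -0.31, -0.23 and -0.02, where NQO1 stood at 1.58, 0.1 and 1.49. The NRF2 regulators measured were KEAP1, CUL3, PARK7 and DPP3. KEAP1, which holds NRF2 in check, was at -0.07, -0.26 and 0.18 with no call. DPP3, a peptidase that binds KEAP1, was the single one called, at -0.49 ± 0.0975 in P114 against CMT-U335.

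Genes that supply NADPH, on which GSR and the thioredoxin reductases depend, were the most often called of the lists between either other line and CMT-U335. The list median in P114 against CMT-U335 was -0.58. Of 10 measured, 6 were called lower in P114 than in CMT-U335 and none higher, where 14.4% of all genes were called lower. The 6 were ALDH1L2 (-2.93 ± 0.147), ME1 (-1.41 ± 0.135), ALDH1L1 (-1.23 ± 0.144), IDH1 (-0.84 ± 0.155), IDH2 (-0.82 ± 0.0712) and NNT (-0.34 ± 0.1). In CMT-U229 against CMT-U335 the median was -0.44 and 6 were lower, where 8.58% of all genes were: ALDH1L1 (-1.29 ± 0.144), ALDH1L2 (-0.89 ± 0.127), ME1 (-0.82 ± 0.115), IDH2 (-0.64 ± 0.148), NNT (-0.6 ± 0.0992) and IDH1 (-0.28 ± 0.0727). These comparisons share the line CMT-U335. The called genes were the malic enzyme ME1, both isocitrate dehydrogenases, the mitochondrial transhydrogenase NNT and the folate dehydrogenases. The pentose phosphate genes PGD, TKT and TALDO1 were not called in any pair, with ratios from -0.16 to 0.31. P114 against CMT-U229 gave 2 calls, ALDH1L2 at -2.12 ± 0.124 and ME1 at -0.63 ± 0.089, where 7.3% of all genes were called.

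Superoxide sources (CYBB, XDH, MAOA and MAOB) gave no call in any pair. In the peroxisome list, where catalase resides, 11 genes were measured. PEX7, an import receptor (-0.92 ± 0.112), and HSD17B4 of fatty acid oxidation (-0.39 ± 0.0862) were lower in P114 when set against CMT-U335. The transporter ABCD3 was higher in P114 (0.47 ± 0.102) and in CMT-U229 (0.51 ± 0.114) than in CMT-U335. ACAA1, a peroxisomal thiolase, was lower in P114 than in CMT-U229 (-0.54 ± 0.0799). The list median lay at -0.01, -0.07 and -0.01, near that of all genes, and in P114 against CMT-U335 its lowest mean was that of PEX7, while CAT, which is not on this list, stood at -1.39.

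**Figure D5:**
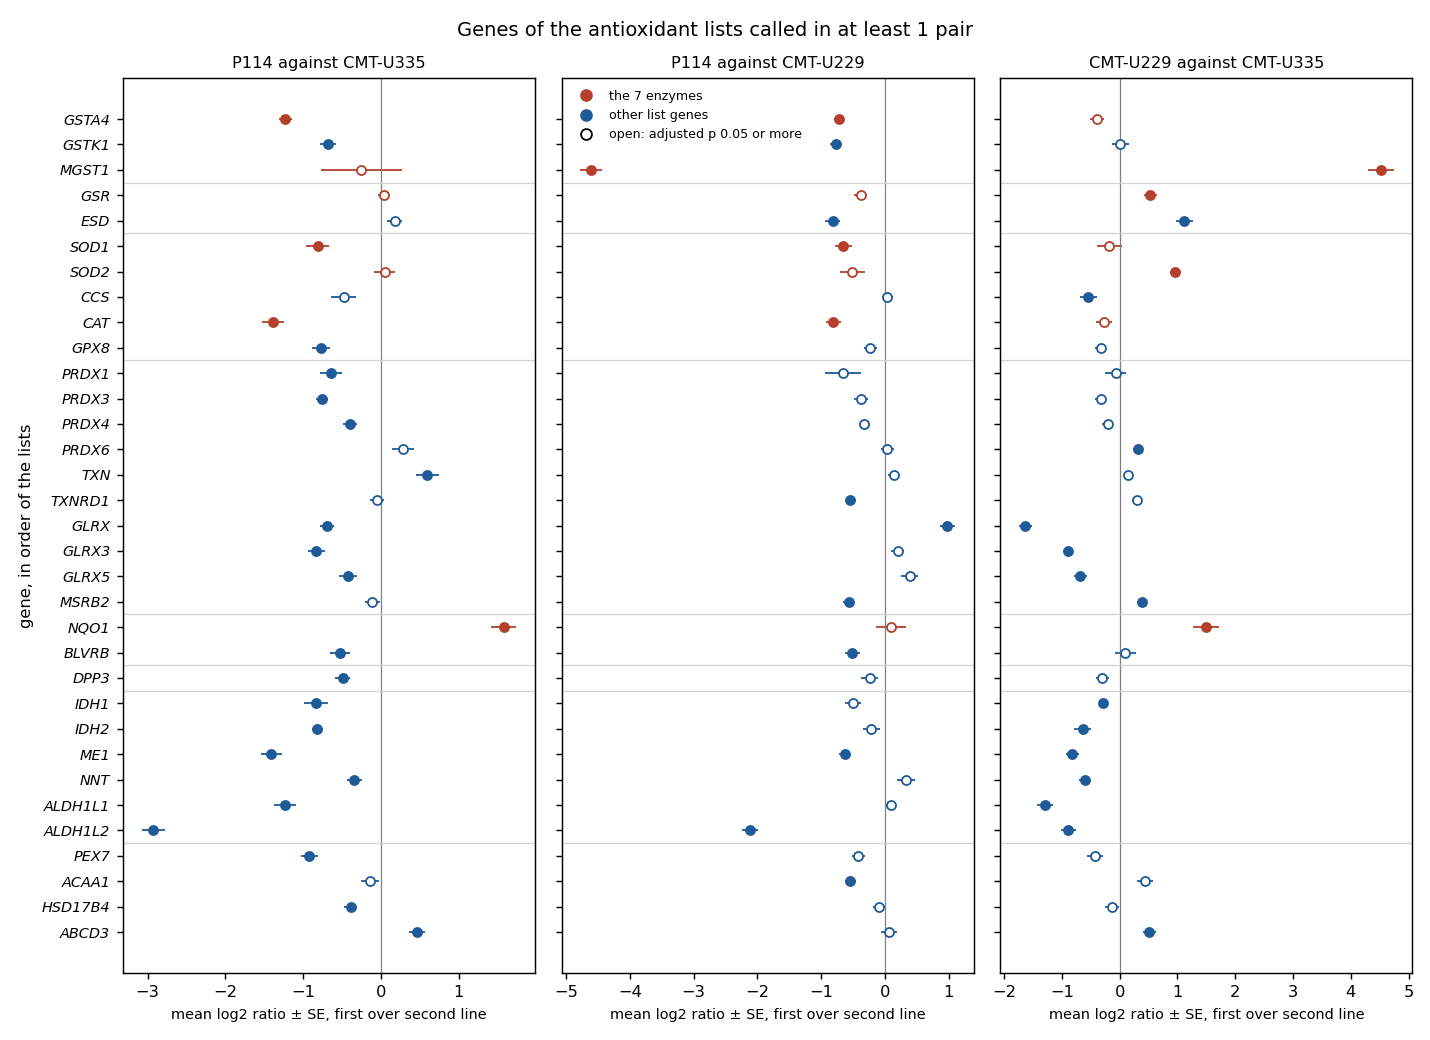
Mean log2 ratio with SE over 5 arrays (horizontal axis, a separate scale per pair) for each gene of the lists called in at least 1 of the 3 pairs, grouped by list with grey lines between lists. Red marks the 7 enzymes, blue the other genes, and open points lie at adjusted p of 0.05 or more; MGST1 lies beyond all others in the pairs with CMT-U229, at -4.61 and 4.52.

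Genes with the most similar values over the 15 arrays were found by the root mean square difference from each enzyme with a called mean ratio of at least 1. They were picked as the lowest of 5244 genes, so distances below the median are no test of similarity. Each median also lay near the enzyme's own root mean square (0.87 for GSTA4, 0.99 for CAT, 1.37 for NQO1 and 3.84 for MGST1). GSTA4 was closest to SUN1 (0.19 log2 units, where its median over 5244 genes was 0.9), then ATXN10 (0.28) and ACAT1 (0.31). SUN1 read -1.03, -0.67 and -0.34 in the 3 pairs, beside -1.23, -0.72 and -0.39 for GSTA4. CAT was closest to CCDC62 (0.32), ATG3 (0.35) and ATXN10 (0.36), where the median was 1.01. NQO1 was closest to the translation initiation genes EIF3H (0.47) and EIF3E (0.52) and to ENY2 (0.56), where the median was 1.4. EIF3H read 1.5, 0.28 and 1.33 in the 3 pairs. MGST1 had the largest ratios of all genes in the pairs with CMT-U229. Its nearest genes were further off: RGCC (1.82), FABP5 (2.14) and CLU (2.18), where the median was 3.85. RGCC read 0.13, -2.59 and 3.05, so that CMT-U229 was its highest line too, with smaller ratios.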

How the data were processed

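The authors normalized and log transformed the values before deposit, per the series design text, and the deposited log2 ratios compare the dyes on 15 cDNA arrays. Neither the normalization nor the log base nor the numerator is stated in the labels or file headers. Base 2 was taken since the largest value, 12.43, would be a 249732-fold ratio as a natural log, beyond the 65536 levels of a 16-bit scan. Array medians lay between -0.00671 and 0.0134. Intensities were not used, so precision depends on how many arrays were run. Of 22176 probes 7694 had 1 symbol, 0 several and 14482 none; 7340 symbols were updated by Entrez identifier (RefSeq, UU_Cfam_GSD_1.0). Arrays were turned to title order by their dyes and probes of a gene averaged. Correlations between arrays of a pair, over probes, ran from 0.2 to 0.5 where the dyes ran the same way and from about 0 to 0.35 where they were opposed and turned.

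Each pair was fitted alone with limma 3.58.1 in R 4.3.3 (lmFit, eBayes, two-sided, mean against 0), in place of the SAM test that the design names. A gene needed values on at least 3 arrays. Line order, closure and dye term were fitted over all 15 arrays. The fits were tested on simulated data with independent noise on each array, no shared RNA and no dye effect. That test does not bear on p-values where arrays share RNA. The text names the 7 enzymes, every list gene called in any pair, and the 3 genes nearest each enzyme that was called at 1 or more; further list genes, KRT8, COL1A2, SPP1 and SPARC were named after their values were seen. The members and lists were chosen with earlier results of these data known, and the order of the lines with swaps averaged was added after the data were seen. Alternatives were centring and scaling of arrays, the handling of missing values, a term for dye, joint fits, a replicate block, probe summaries, eBayes settings, apparent swaps averaged and each array left out.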

Additional observations from a re-analysis of the deposited data

Results flagged for a closer look

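In 4 of 64 sets of 5 arrays, 1 array stood apart from the others by Dixon's criterion, where chance gives about 1 in 20. MGST1 in P114 against CMT-U335 was at -2.96 on replicate 1, and the next lowest array was at 0.12. MGST1 in P114 against CMT-U229 was at -5.4 on replicate 3, next to -4.5. IDH1 in P114 against CMT-U335 was at -0.1 on replicate 2, next to -0.93. GLRX in P114 against CMT-U229 was at 1.51 on replicate 4, next to 0.9.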

How the results depend on the processing

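Of 366 alternative values of the 7 enzymes' ratios, 8 gained a call, 16 lost one and 7 turned in sign. Counts of called genes moved by over 1.5 times in these cases. The loop fit gave 1757, 1056 and 1445 genes for P114 against CMT-U335, P114 against CMT-U229 and CMT-U229 against CMT-U335, against 1169, 383 and 910, and 31 and 34 list genes in the last pairs against 13 and 18. For P114 against CMT-U229, pair means over all 15 arrays gave 650 genes and robust, trended eBayes 223; averaged apparent swaps gave 79 genes, 2 enzymes and 3 list genes. For CMT-U229 against CMT-U335 the averaged swaps gave 410 genes and 11 list genes. Leaving out a replicate gave 202 to 408 genes in P114 against CMT-U229 (202, 224, 235 and 223 without replicates 1, 2, 3 and 5). In CMT-U229 against CMT-U335 it gave 571 to 863 genes (586 without replicate 2 and 571 without 5) and 11 to 20 list genes (11 without replicate 2).

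Signs turned for uncalled values only. Leave-one-out ranges in P114 against CMT-U335 were -0.6 to 0.43 for MGST1, -0.1 to 0.14 for SOD2 and 0 to 0.07 for GSR. NQO1 in P114 against CMT-U229 was at -0.01 with swaps averaged and ran -0.09 to 0.28 on leaving out an array, as SOD1 did in CMT-U229 against CMT-U335 (-0.36 to 0.02). Loop closure turned with scale normalization for MGST1 (0.11), GSTA4 (0.02) and NQO1 (0.05). It ran over -0.58 to 0.42 for MGST1, -0.39 to 0.49 for NQO1 and -0.08 to 0.21 for SOD1 on leaving out a replicate.

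The replicate numbers were not found to pair arrays across pairs of lines: of 15 same-numbered couples 3 correlated above 0.1 (from -0.25 to 0.33). With the replicate block 1172, 515 and 920 genes and 4, 4 and 5 enzymes were called. SOD1 lost its call in P114 against CMT-U229 (adjusted p = 0.0662); SOD2 there (0.03) and GSTA4 in CMT-U229 against CMT-U335 (0.0215) gained one.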
